A study of Mus musculus with 6 samples.

Results

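The genes described here are 10 members of the machinery that matures and sheds the outer epidermis: the kallikreins Klk6, Klk7 and Klk10, the proteases Asprv1, Casp14 and St14, the protease inhibitors Spint1 and Spint2, and the transglutaminases Tgm1 and Tgm3. They were taken by gene name from the array files, and all 10 were present with 1 probe each, among 18558 gene names tested. All 10 passed the filter on dim probes, under which Cy3 or Cy5 had to stand well above background on 2 or more arrays.

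The values come from 6 Agilent 2-colour arrays of mouse HACA cells, a name that the labels do not explain further. shSnail cells carry a short hairpin against Snail, the zinc-finger repressor encoded by Snai1, and were hybridised on 2 arrays, both with the shSnail RNA in Cy5. shLoxl2 cells carry a hairpin against Loxl2, a lysyl oxidase-like enzyme, and were hybridised on 4 arrays, so that each of 2 replicate numbers was run in both dye orientations. RNA of the control cell line, which carries a hairpin against GFP and is called shGFP, was in the other channel of every array and counts as 1 control sample. No age, treatment, time or clone number is given in the labels, and whether the samples within a group were grown as separate cultures is not stated. The p-values therefore rest on the spread between these samples (n = 2 in each silenced group), which may be technical. In every comparison that spread is pooled over both silenced groups and moderated toward that of all probes. For shSnail against shGFP it also holds the spread of the dye effect on the shLoxl2 arrays. The p-values leave out the control's own spread.

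In the upper epidermis, kallikreins are secreted as inactive serine proteases, are activated in a cascade and cut the corneodesmosomes that hold dead keratinocytes together. Spink5 encodes LEKTI, which restrains several of them, and the membrane-anchored protease matriptase (St14) with its Kunitz inhibitors (Spint1 and Spint2) controls an activation step. Casp14 and Asprv1 take part in the processing of filaggrin, while transglutaminases cross-link proteins such as loricrin into the cornified envelope.

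RefSeq promoter windows (build GRCm38.p6, from 250 bases before to 50 bases after the gene's start) matched 9 of the 10 genes by symbol. Those of the 4 genes with the largest rises in shLoxl2 cells are shown to set genes that moved together beside each other, and that of Spint2 because it held the most matches to the E-box form that Snail binds. Capitals mark CAGGTG, read on either strand, so that it also appears as CACCTG.
Asprv1, chr6:86627924-86628223, plus strand: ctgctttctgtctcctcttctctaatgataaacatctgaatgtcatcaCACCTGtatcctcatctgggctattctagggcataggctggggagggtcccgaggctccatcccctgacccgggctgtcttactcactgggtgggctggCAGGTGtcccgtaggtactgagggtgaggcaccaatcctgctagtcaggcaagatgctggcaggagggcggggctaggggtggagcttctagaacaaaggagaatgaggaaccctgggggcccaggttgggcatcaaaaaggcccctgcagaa
Klk7, chr7:43811044-43811343, plus strand: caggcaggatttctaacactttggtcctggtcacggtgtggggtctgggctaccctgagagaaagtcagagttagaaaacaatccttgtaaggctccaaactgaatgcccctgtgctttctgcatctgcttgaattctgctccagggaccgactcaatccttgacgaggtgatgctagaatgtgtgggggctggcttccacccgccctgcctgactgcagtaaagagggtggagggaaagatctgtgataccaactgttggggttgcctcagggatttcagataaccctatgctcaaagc
Klk6, first of its windows, chr7:43824294-43824593, plus strand: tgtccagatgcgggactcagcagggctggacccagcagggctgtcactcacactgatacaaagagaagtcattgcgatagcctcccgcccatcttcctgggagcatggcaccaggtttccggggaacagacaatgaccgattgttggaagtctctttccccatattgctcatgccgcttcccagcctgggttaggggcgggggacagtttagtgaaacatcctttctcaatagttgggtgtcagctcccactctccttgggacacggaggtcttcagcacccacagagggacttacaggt
Klk10, chr7:43780804-43781103, plus strand: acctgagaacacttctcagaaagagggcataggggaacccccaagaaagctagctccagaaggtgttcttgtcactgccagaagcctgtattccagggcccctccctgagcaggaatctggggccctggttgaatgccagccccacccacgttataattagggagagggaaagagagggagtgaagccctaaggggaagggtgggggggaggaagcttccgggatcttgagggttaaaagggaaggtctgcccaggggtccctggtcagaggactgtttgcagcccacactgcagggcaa
Spint2, chr7:29281928-29282227, minus strand: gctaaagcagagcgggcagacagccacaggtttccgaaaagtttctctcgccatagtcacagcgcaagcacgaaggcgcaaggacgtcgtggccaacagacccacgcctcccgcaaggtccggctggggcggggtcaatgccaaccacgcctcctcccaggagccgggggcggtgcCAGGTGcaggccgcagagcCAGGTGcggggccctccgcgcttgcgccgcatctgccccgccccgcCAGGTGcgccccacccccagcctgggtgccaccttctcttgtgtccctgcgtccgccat

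CAGGTG was present in 3 of 9 genes, or 3 of their 11 windows, and in 20.2% of all 32851 windows of this length. It had 3 matches in Spint2, 2 in Asprv1 and 1 in Casp14. In Asprv1 the matches began at positions -202 and -103 relative to the start, and in Spint2 at -74, -55 and -9. None of the windows of Klk6, Klk7 and Klk10 held it. The looser CANNTG, which contains CAGGTG, matched in 6 of 9 genes (7 of 11 windows) and in 72.3% of all windows. CACCC, a core of sites for Klf factors, matched in 9 of 9 genes (10 of 11 windows) and in 57.5% of all windows. The AP-1 motif TGANTCA reads the same on both strands and was found in Spint1 alone (1 of 11 windows), against 7.81% of all windows. These matches describe the letters of the windows and nothing was measured at them here.

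The probes for Loxl2 and Snai1 did not show their targets lowered, so the words shLoxl2, shSnail and silenced stand here for the labelled hairpin alone. In shLoxl2 against shGFP, Loxl2 had a log2 fold change of 0.11 (adjusted p = 0.59, limma), and in shSnail against shGFP Snai1 had one of -0.09 (adjusted p = 0.82), with its probe not well above background in Cy3 on any array. The Loxl2 probe was well above background on 3 of the 6 arrays in Cy3 and on 4 in Cy5. In shSnail against shGFP the sign of Loxl2 changed with the dye treatment. Neither probe therefore shows whether its target was lowered. Between 85.4% and 92.4% of probes were well above background in Cy5 and between 55.9% and 74.9% in Cy3, so faint members are less firmly measured in Cy3. The shSnail and shLoxl2 arrays fell on 2 scan days and under 2 extraction protocols of the scanner software, none shared by both groups. Batch and group therefore cannot be told apart. Of 10 keratinocyte markers, 7 were well above background in both channels of all 6 arrays. The summed intensity of these markers differed by dye on the shLoxl2 arrays. With shLoxl2 RNA in Cy3 it was 177300 and 199600, against 215000 and 207800 in shGFP RNA. With shLoxl2 RNA in Cy5 it was 164000 and 186400, against 251700 and 279300. On the shSnail arrays, with shSnail RNA in Cy5 alone, it was 128600 and 128100, against 271200 and 269100. In shSnail cells 1 of those markers rose and 5 fell. The 4 with the smallest p were Itgb4 (-1.78), Dsp (-1.83), Trp63 (-1.71) and Itga6 (-2.08), all lower. A second Dsp probe, at -0.59, did not pass. Over all probes, 21.3% were called in shSnail cells and 13.8% in shLoxl2 cells. In shLoxl2 cells Cdh1 rose (1.08), while Itgb4 (-1.88), Trp63 (-1.15) and Dsp (-0.59) fell, the last with a second probe at 0.09 that did not pass. Few markers of other cell types passed, to be read beside those shares of all probes called. Of them, 4 leukocyte, 1 fibroblast, 0 endothelial and 0 melanocyte markers were well above background in both channels of all 6 arrays. The others are less firmly measured. In shSnail cells Pdgfra fell (-1.18) and no other of them passed. In shLoxl2 cells Cd68 rose (0.66) among 8 leukocyte markers, Pdgfra fell (-0.82) among 7 fibroblast markers, and none of 3 endothelial and 4 melanocyte markers passed. With the scanner software's own ratios Cd68 (adjusted p = 0.0769, limma), Pdgfra (0.0608) and Dsp (0.111) lost their calls in shLoxl2 cells. On the shLoxl2 arrays the summed leukocyte signal was 2031 to 3554 in shLoxl2 RNA and 2082 to 3344 in shGFP RNA. The summed fibroblast signal there differed by dye. With shLoxl2 RNA in Cy3 it was 1129 and 1240, against 1781 and 1826 in shGFP RNA. With shLoxl2 RNA in Cy5 it was 1451 and 1461, against 1385 and 1569. On the shSnail arrays the leukocyte sums were 4381 and 3880 in shSnail RNA, against 4106 and 3553 in shGFP RNA. The fibroblast sums were 1437 and 1314, against 1487 and 1458. The part of such cells in the results was not tested. In RNA of a whole culture, fewer cells of a type and less RNA per cell cannot be told apart.

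The control RNA did not read alike on the shSnail and shLoxl2 arrays for 2 members. Klk6 in shGFP RNA read 102 and 92.3 on the shSnail arrays, not well above background on either, but 606 to 1177 on the 4 shLoxl2 arrays. Between the Cy3-labelled shGFP channels that is a log2 difference of -3.26 (shSnail arrays minus shLoxl2 arrays), and 0.0964% of probes differed by as much or more. Spint2 went the other way. Its shGFP signal was 13620 and 9104 on the shSnail arrays, against 219 to 2127 on the shLoxl2 arrays, a log2 difference of 3.72 that 0.0507% of probes matched or exceeded. Asprv1 in shGFP RNA was at -1.22 (3.99% of probes), and the other 7 members lay between -0.68 and 0.55. Over all probes these control channels correlated at 0.959, with a median absolute difference of 0.31. The cause was not tested. Ratios within an array set each silenced RNA against the shGFP RNA on that same array, whereas comparisons of intensity between the 2 sets of arrays carry these differences.

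**Figure D1:**
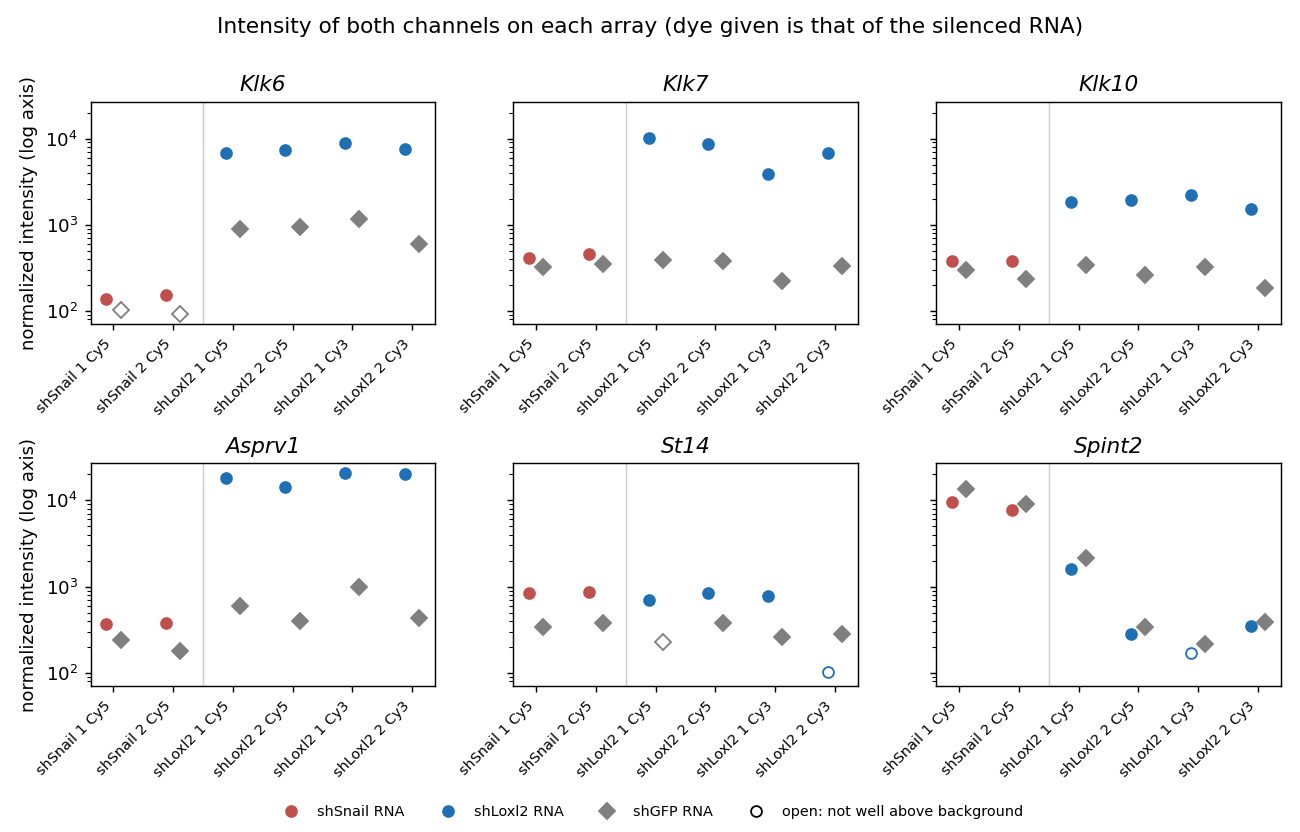
Normalized intensity (log axis) of the silenced RNA (circles) and of the shGFP RNA (diamonds) on each of the 6 arrays for 6 members, with open symbols where the spot was not well above background. Klk6, Klk7, Klk10 and Asprv1 stand far above shGFP in the 4 shLoxl2 RNAs, whereas Spint2 is bright in both channels of the shSnail arrays between 170 and 2127 on the shLoxl2 arrays.

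In the cells labelled shLoxl2, whose Loxl2 probe does not show whether Loxl2 was lowered, Klk6, Klk7, Klk10 and Asprv1 had the largest rises of the group. In all, 6 of the 10 genes rose and 0 fell at an adjusted p under 0.05. Over all 19719 probes, 13.8% were called, 8.01% higher and 5.83% lower. The median log2 fold change was 0.79 over the 10 genes and -0.01 over all probes tested. Klk6, Klk7, Klk10 and Asprv1 rose between 6.89-fold and 32.0-fold, Spint1 and Tgm1 rose by less than 2-fold, and 4 genes did not pass. The sizes changed with the processing. With no background subtraction the log2 rises were 2.63 for Klk6, 3.40 for Klk7, 1.75 for Klk10 and 4.28 for Asprv1, and with the scanner software's own ratios 3.27 for Klk6, 5.14 for Klk7, 4.06 for Klk10 and 5.52 for Asprv1.

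Klk7 encodes the chymotrypsin-like enzyme of the stratum corneum, which cuts corneodesmosin and desmocollin. Its probe lies at chr7:43683740-43683800 in mm8, the build of the files. The log2 ratio of shLoxl2 over shGFP RNA on the 4 arrays was 4.13 (number 1, Cy3), 4.72 (number 1, Cy5), 4.34 (number 2, Cy3) and 4.51 (number 2, Cy5). All 4 arrays were far above 0 and the dye-swapped means of the 2 numbers were both 4.42. The intensity was 3876 to 10180 in shLoxl2 RNA, against 222 to 387 in shGFP RNA, with no overlap. The fitted log2 fold change was 4.42 (SE 0.11, 95% interval 4.16 to 4.68, adjusted p = 0.000316, limma), a 21.4-fold rise.

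Klk6, a trypsin-like kallikrein expressed in skin and in the central nervous system, has its probe at chr7:43699635-43699694 (mm8). Its log2 ratios were 2.93 and 2.92 for number 1 (Cy3, then Cy5) and 3.63 and 2.94 for number 2. The Cy3 array of number 2 stood above the other three, which were nearly equal. The intensity was 6844 to 8993 in shLoxl2 RNA and 606 to 1177 in shGFP RNA, again without overlap. The gene rose 8.6-fold (log2 3.10, SE 0.14, adjusted p = 0.000594).

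Klk10, a kallikrein of skin and other epithelia, is probed at chr7:43651749-43652392 (mm8). Its log2 ratios were 2.78 and 2.44 for number 1 (Cy3, then Cy5) and 3.05 and 2.87 for number 2. Its signal was 1534 to 2223 in shLoxl2 RNA against 186 to 338 in shGFP RNA, and the groups did not overlap. The rise was 6.89-fold (log2 2.78, SE 0.15, adjusted p = 0.00101).

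Asprv1 encodes SASPase, the aspartic protease that cuts profilaggrin in the granular layer, and its probe lies at chr6:86594991-86595050 (mm8). The ratios of shLoxl2 over shGFP RNA were 4.36 and 4.91 for number 1 (Cy3, then Cy5) and 5.56 and 5.16 for number 2, on the log2 scale. Intensity was 14130 to 20470 in shLoxl2 RNA, against 394 to 995 in shGFP RNA. The 32.0-fold rise (95% interval 4.49 to 5.51 on the log2 scale, adjusted p = 0.000594) was the largest of the 10 genes. Casp14, which also takes part in the processing of filaggrin, did not follow. It had log2 ratios of -0.77 and -0.20 for number 1 (Cy3, then Cy5) and 0.28 and -0.46 for number 2, on both sides of 0, and a fitted value of -0.29 (95% interval -0.62 to 0.04, adjusted p = 0.23).

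**Figure D2:**
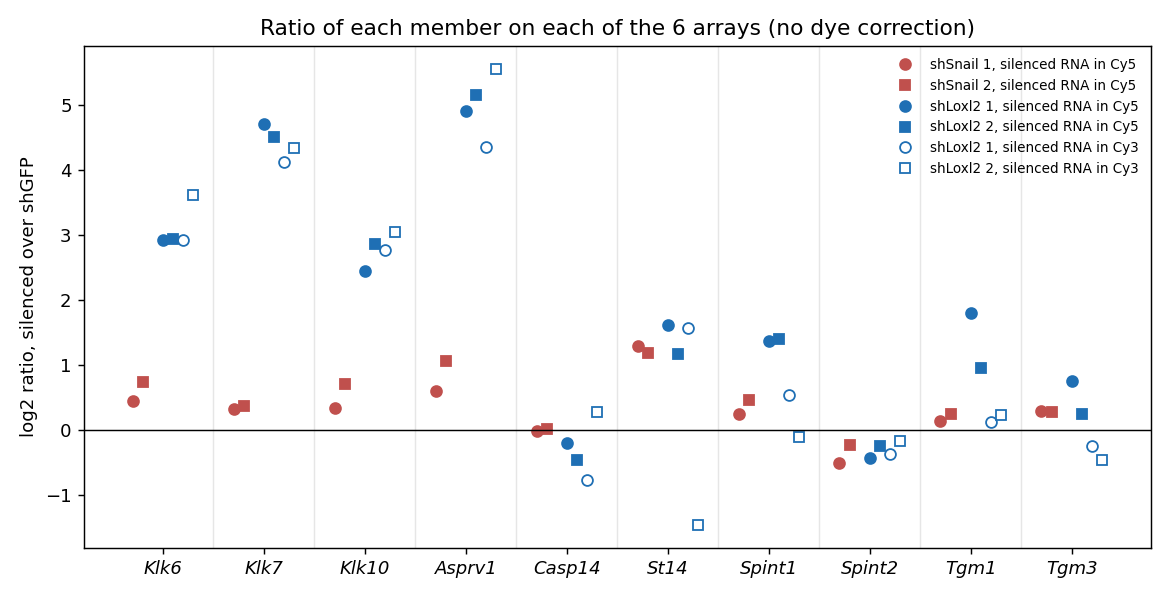
Log2 ratio of silenced over shGFP RNA for each gene on each array before dye correction, with filled symbols for silenced RNA in Cy5 and open symbols for Cy3, circles for number 1 and squares for number 2. The shLoxl2 ratios of Klk6, Klk7, Klk10 and Asprv1 all exceed 2.4, those of Spint1 and Tgm1 are higher in Cy5 than in Cy3, and St14 has 1 array at -1.46.

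St14 encodes matriptase, and its probe lies at chr9:30838997-30839056 (mm8). On 3 arrays shLoxl2 exceeded shGFP by a log2 ratio of 1.57, 1.61 and 1.17, but the Cy3 array of number 2 gave -1.46, with the shLoxl2 spot there at 103 and not well above background. The fitted change of 0.72 did not pass (95% interval -0.20 to 1.65, adjusted p = 0.276). With that array left out, an alternative chosen after seeing the data, St14 rose by 1.48 (adjusted p = 0.00323, limma) and Casp14 fell by 0.55 (adjusted p = 0.0209, limma). For Casp14 the array left out was the only one above 0, at 0.28. The lowest Casp14 ratio kept, -0.77, came from a shLoxl2 spot at 147 that was not well above background. Without the whole of number 2, St14 was at 1.59 (adjusted p = 0.00881).

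Spint1, which encodes HAI-1, the Kunitz inhibitor of matriptase, was faint, with 77.2 to 357 units in any channel. Its log2 ratios differed by dye, with 1.37 and 1.40 where the shLoxl2 RNA was in Cy5 but 0.54 and -0.11 in Cy3. In both Cy5 arrays the shGFP spot was not well above background. The dye-swapped fit called a rise of 0.80 (SE 0.13, adjusted p = 0.0149), a 1.74-fold change. The call was lost without number 1 (adjusted p = 0.0659), with no background subtraction (0.0629) and with the scanner software's ratios (0.0596). Spint2, which encodes the related inhibitor HAI-2, was lower on all 4 arrays, at -0.16 to -0.43, and did not pass (-0.30, 95% interval -0.61 to 0.01, adjusted p = 0.188).

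Tgm1, the membrane-bound transglutaminase of keratinocytes, is probed at chr14:54658882-54658941 (mm8). It too differed by dye. Its log2 ratios were 1.81 and 0.95 in Cy5, where the shGFP spots were not well above background, and 0.13 and 0.23 in Cy3. The fitted rise was 0.78 (SE 0.13, adjusted p = 0.0167), a 1.72-fold change, and was not called without number 1 (adjusted p = 0.0668). Tgm3, the transglutaminase of the granular layer and hair follicle, had ratios from -0.46 to 0.76 on both sides of 0. Its fitted value was 0.07 (95% interval -0.24 to 0.39, adjusted p = 0.749).

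The other genes of these pathways add context to the rises. Their lists were chosen with earlier results of these data known. Over all probes, 8.01% were called higher and 5.83% lower in shLoxl2 cells. Of 36 tested related proteases and inhibitors, 11 rose and 3 fell in shLoxl2 cells, and their median log2 fold change was 0.18. Spink5 was the one called with the smallest p (3.58, adjusted p = 0.000316). Klk12 rose by 2.99, Prss8, a membrane-anchored protease known as prostasin, by 1.82, and Ctsd, the lysosomal aspartic protease cathepsin D, by 1.24 on the log2 scale. Among 17 substrates and envelope proteins 9 rose and 0 fell, and the median was 0.69. Sprr1b, a small proline-rich envelope precursor, rose by 2.77, Krt10, a keratin of suprabasal cells, by 2.15, Lor, which encodes loricrin, by 2.07, and Epcam, a matriptase substrate, by 1.51. Among 11 other transglutaminases, deiminases and envelope lipoxygenases, 2 rose, Aloxe3 (0.72) and Padi3 (0.78), and 1 fell, Padi4 (-0.49). The limma call of Aloxe3 was lost with no background subtraction (adjusted p = 0.0713). Those of Padi3 (adjusted p = 0.0945) and Padi4 (adjusted p = 0.129) were lost with the scanner's ratios. None of the other transglutaminases passed.

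Along chromosome 7 the kallikrein genes lie side by side. The 9 tested kallikrein probes lie in the order Klk12, Klk11, Klk10, Klk8, Klk7, Klk6, Klk5, Klk4 and Klk1. Of these, 5 rose and 0 fell in shLoxl2 cells, beside 8.01% of all probes called higher and 5.83% lower. Klk12, Klk10, Klk7 and Klk6 rose by 2.78 to 4.42 on the log2 scale. Klk11 (-0.17) and Klk8 (0.19) lie between them and did not pass. Klk5, an activator in the cascade, rose by 0.62 (adjusted p = 0.0279). It was named after its value was seen, for its place in the cluster. The limma call was lost with no background subtraction (0.24, adjusted p = 0.0527) and with the scanner's ratios (1.15, adjusted p = 0.0886). It was also lost with the Cy3 array of number 2 left out (0.57, adjusted p = 0.0846) and without number 1 (0.45). Its mean log2 ratio was 0.98 with shLoxl2 RNA in Cy5 and 0.25 in Cy3. Cross-hybridisation between members of this gene family was not tested.

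**Figure D3:**
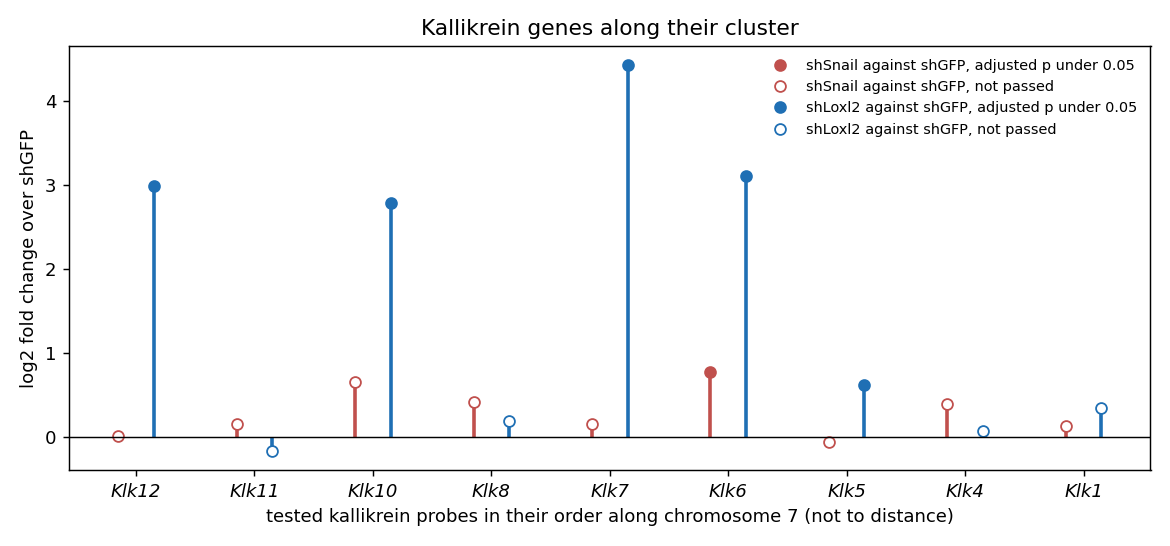
Log2 fold change over shGFP of the 9 tested kallikrein probes in their order along chromosome 7 (not to distance), with filled symbols where the adjusted p was under 0.05. In shLoxl2 cells Klk12, Klk10, Klk7 and Klk6 stand between 2.78 and 4.42, with Klk11 and Klk8 near 0 among them, while in shSnail cells none exceeds 0.77.

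In shSnail cells Klk6 was the 1 gene of the 10 called. At an adjusted p under 0.05, it rose and 0 fell, against 21.3% of all probes called (8.77% higher and 12.5% lower). The median was 0.10 over the 10 genes and -0.04 over all probes. Because both arrays had one dye orientation, the dye effect of each probe was estimated on the shLoxl2 arrays and removed. Its slope in the shSnail ratios was 0.453, less than full size, and values with the effect scaled or left in are given beside the main ones. The dye effect of some members was estimated at another brightness. Mean log2 brightness on the shLoxl2 and shSnail arrays was 11.34 and 6.90 for Klk6 and 11.64 and 8.12 for Asprv1. For Spint2 it was 8.81 and 13.26. Whether this altered the corrected values was not tested.

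Klk6 had uncorrected log2 ratios of 0.45 and 0.74 on the shSnail arrays, with intensities of 139 and 154 in shSnail RNA against 102 and 92.3 in shGFP RNA. The groups did not overlap, but no shGFP spot was well above background. Corrected for the dye, the rise was 0.77 (SE 0.20, adjusted p = 0.0394), and from the channel means, which carry any dye bias, at least 1.38-fold. The call was lost without shSnail number 1 (adjusted p = 0.0866), without shSnail number 2 (0.178), without shLoxl2 number 2 (0.0996) and with the scanner's ratios (0.153).

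Klk10 and Asprv1 lay close to the threshold. Klk10 had uncorrected log2 ratios of 0.33 and 0.71, and intensities of 376 and 383 in shSnail RNA against 298 and 234 in shGFP RNA. Its dye-corrected value was 0.65 (SE 0.19, adjusted p = 0.0553), but 0.58 with the scaled effect (adjusted p = 0.0325) and 0.52 uncorrected (adjusted p = 0.0447). Asprv1 had ratios of 0.60 and 1.06, with 365 and 379 in shSnail RNA against 241 and 182 in shGFP RNA. Its value of 0.79 (SE 0.30, adjusted p = 0.108) passed with the scaled effect (0.81, adjusted p = 0.0472) and uncorrected (0.83, adjusted p = 0.0296). Both genes thus had shSnail values above those of shGFP on both arrays, and whether they are called rests on how the fit treats the dye. The values themselves moved little, with a dye effect of -0.13 for Klk10 and 0.04 for Asprv1. Over all probes, 4563 were called with the scaled effect and 6195 uncorrected, against 4203 with the effect removed in full. Klk7, the second largest rise in shLoxl2 cells, had ratios of 0.32 and 0.37 and a corrected value of 0.15 (95% interval -0.18 to 0.49, adjusted p = 0.49).

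St14 read 844 and 859 in shSnail RNA, against 345 and 379 in shGFP RNA, which is an uncorrected log2 mean of 1.24. Its corrected value was 0.57 with a wide interval, -0.88 to 2.02 (adjusted p = 0.552), and its dye effect was estimated in part on the dim shLoxl2 array. With that array left out it was 1.33 (adjusted p = 0.0154). Spint2 was bright, at 9585 and 7745 in shSnail RNA against 13620 and 9104 in shGFP RNA, and had a corrected value of -0.33 (adjusted p = 0.184). The other 4 genes did not pass, at 0.04 for Casp14, -0.15 for Tgm3, -0.23 for Spint1 and -0.41 for Tgm1. For Spint1 and Tgm1 the shGFP spots were not well above background on either array, and the channel means put shSnail at least 1.04-fold and at least 1.14-fold higher, opposite in direction to the corrected values.

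**Figure D4:**
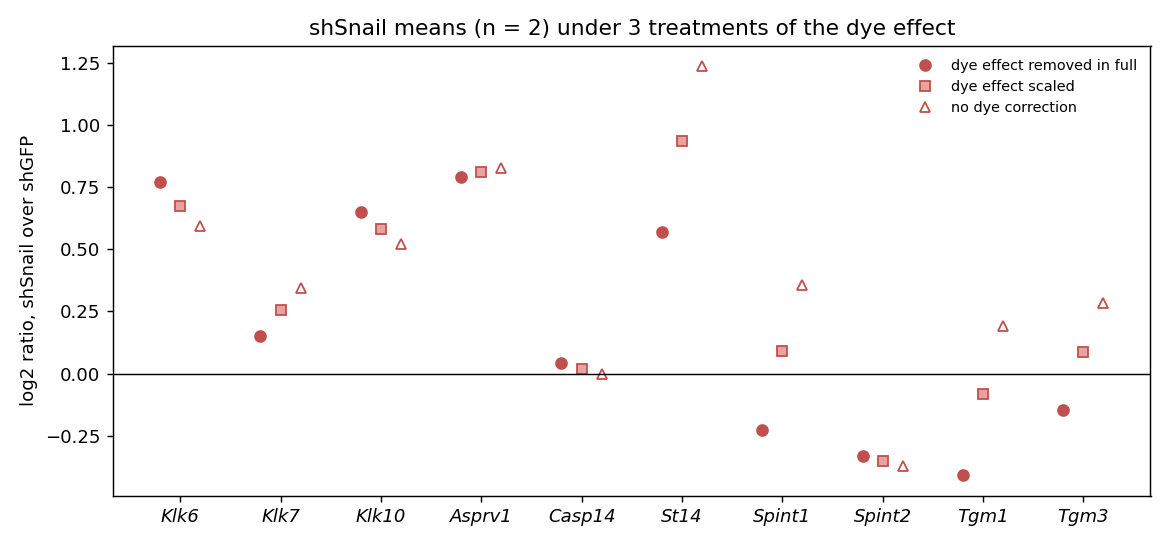
Mean log2 ratio of shSnail over shGFP for each gene (n = 2) with the dye effect removed in full, scaled by its slope of 0.453, and left in. Klk6, Klk7, Klk10 and Asprv1 stay above 0 under all 3, St14 moves from 0.57 with full removal to 1.24 without it, and Spint1, Tgm1, Tgm3 and, close to 0, Casp14 change sign.

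The related lists in shSnail cells had calls in both directions, beside 21.3% of all probes called. Of 36 related proteases and inhibitors 3 rose, among them Ctsd (0.72) and Prss27 (0.79), and 3 fell, among them Furin (-1.04) and Serpinb5 (-0.80). Prss27 is not called, at -0.11, with no dye correction. Of 17 substrates 1 rose, Krt10 (0.79), and 3 fell, Ivl (-1.97), Evpl (-0.93) and Scnn1a (-0.87), which encode involucrin, envoplakin and a subunit of the epithelial sodium channel; Scnn1a was at 0.34 uncorrected. Among other transglutaminases and deiminases 3 rose, Aloxe3 (1.49), Padi3 (1.07) and Padi2 (0.66), and 1 fell, Tgm5 (-1.24).

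**Figure D5:**
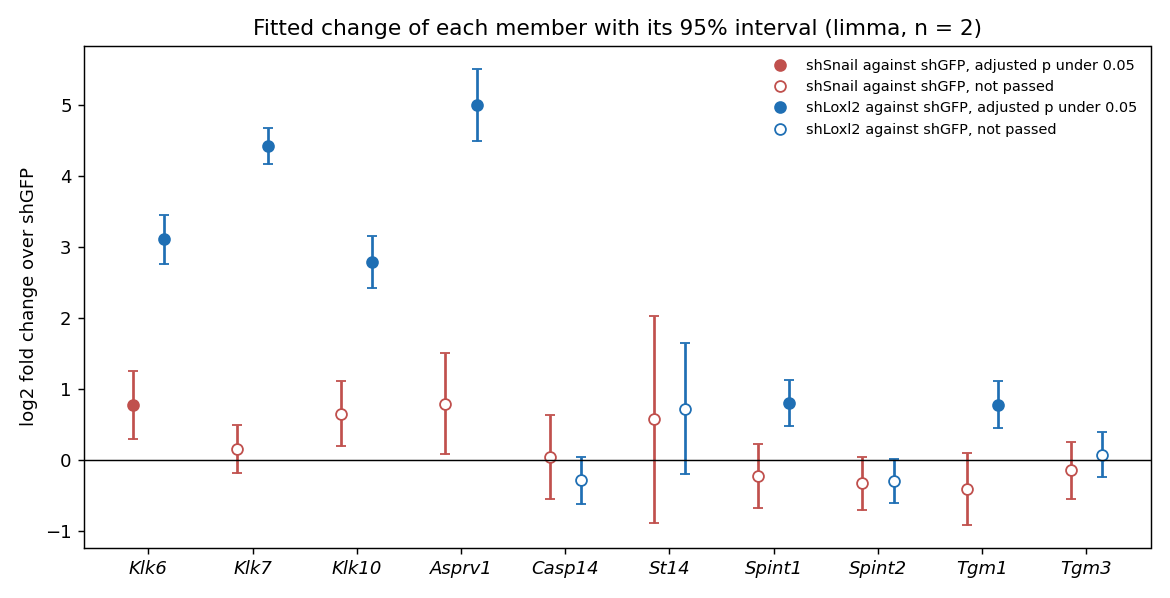
Fitted log2 fold change over shGFP of each gene with its 95% interval, in shSnail cells and in shLoxl2 cells, with filled symbols where the adjusted p was under 0.05. The intervals of Klk6, Klk7, Klk10 and Asprv1 in shLoxl2 cells lie above 2.4, and the widest intervals are those of St14.

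The difference between shSnail and shLoxl2 cells was tested directly on the 4 arrays with silenced RNA in Cy5. In shSnail against shLoxl2, 5 of the 10 genes were lower and 0 higher, against 12.8% of all probes called (4.22% higher and 8.53% lower). Klk7 was lower by a log2 value of -4.27 (95% interval -4.68 to -3.86, adjusted p = 0.00235) and Asprv1 by -4.21 (-4.77 to -3.65, adjusted p = 0.00485). Klk6 differed by -2.33 (adjusted p = 0.0118), Klk10 by -2.13 (adjusted p = 0.017) and Spint1 by -1.03 (adjusted p = 0.0246). Without either shSnail array, Klk7 and Asprv1 alone stayed called, and Klk6 lost its call with the scanner's ratios (-1.88, adjusted p = 0.135). Spint1 also lost its call with no background subtraction (-0.24, adjusted p = 0.127) and with dye-cancelled shLoxl2 means against shSnail values with the dye effect scaled (-0.71, adjusted p = 0.0599). Tgm1 (-1.19, adjusted p = 0.0638), Casp14 (0.33), St14 (-0.15), Spint2 (-0.03) and Tgm3 (-0.22) did not pass. The call of Tgm1 depended on the setting: it was lower with the scanner's ratios (-1.89, adjusted p = 0.0381), without shLoxl2 number 1 (-0.76, adjusted p = 0.0362) or number 2 (-1.62, adjusted p = 0.0133), and with dye-cancelled means and the scaled dye effect (-0.86, adjusted p = 0.0475). The 95% interval of the difference was -0.67 to 0.37 for St14 and -0.49 to 0.43 for Spint2.

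Read as intensities of the silenced channels alone, an alternative chosen after seeing the data, shSnail minus shLoxl2 was -5.59 for Klk6 on the log2 scale (adjusted p = 2.36e-05), where the ratios differed by -2.33. For Spint2 it was 3.69 (adjusted p = 0.00849), where the ratios differed by -0.03. By construction, these intensity and ratio values differ by the difference in shGFP signal between the sets of arrays. That difference was -3.26 for Klk6 and 3.72 for Spint2. For Asprv1, where it was -1.22, the intensities gave -5.43 and the ratios -4.21. Klk7 and Klk10, whose shGFP signals differed by -0.17 each, gave -4.44 and -2.31 from the intensities, against -4.27 and -2.13 from the ratios.

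Among related genes, 1 of 36 proteases and inhibitors was higher and 10 lower in shSnail than in shLoxl2. Over all probes, 4.22% were called higher and 8.53% lower. Spink5 was at -3.63, Csta1, a cysteine protease inhibitor, at -3.03, Klk12 at -2.98 and Prss8 at -1.68. Of 17 substrates 0 were higher and 9 lower, including Sprr1b (-3.00), Lor (-2.05) and Ivl (-1.87). Aloxe3, the lipoxygenase of the epidermal lipid envelope, was the 1 of 11 other transglutaminases and deiminases called, and was higher in shSnail by 0.77.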

How the data were processed

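Agilent 2-colour arrays of mouse RNA were read from scanner files, 4 of shLoxl2 and 2 of shSnail RNA, with shGFP RNA in the other channel. Spot intensity values were deposited as the authors' scanner software made them, Agilent Feature Extraction 9.5.1.1 per the file headers and 6.1.1 per the submitters' processing notes. That software also made the deposited log10 ratios, which divide Cy5 by Cy3, per the file headers. The deposited flags for outlier and well-above-background spots were used as the other measure, also per the file headers. Ratio directions came from the dyes in the labels.

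Mean intensities were background-corrected (normexp, offset 50) and normalized by loess in limma 3.58.1 (R 4.3.3), giving weight 0 to 736 control spots and to outlier spots. The 21318 spots were averaged to 20868 probes, of which 19719 passed the filter and were tested. Names came from RefSeq accessions for 14711 probes and from the files for 6157. A gene with several probes took the brightest; other Dsp probes disagreed with the one used. Intensities between arrays were scaled with Aquantile. Both arrays of a shLoxl2 number counted as 1 replicate, a dye swap whose mean cancels the dye effect. The spread for shLoxl2 was pooled with that of shSnail. For shSnail against shGFP the dye effect was taken from the shLoxl2 arrays. Only arrays with silenced RNA in Cy5 entered shSnail against shLoxl2. Testing used lmFit and eBayes from limma with Benjamini-Hochberg adjustment over all probes at 0.05, and was checked on simulated data. An "at least" fold sets the brighter mean against the higher of the dim probe's own signal and the lowest signal well above background on each array.

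The 10 genes and all lists were chosen with earlier results of these data known. Besides the 10 genes, Loxl2 and Snai1, the text names up to 4 called genes of each list by smallest p. Precision is limited by the number of arrays.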

Additional observations from a re-analysis of the deposited data

Results flagged for a closer look

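Among the 4 shLoxl2 arrays, the highest or lowest value of 2 genes lay further from the rest than Dixon's 95% criterion allows. Klk6 had a log2 ratio of 3.63 on the Cy3 array of number 2, while the other three arrays gave 2.92 to 2.94. St14 had a log2 ratio of -1.46 on that same array, where its shLoxl2 spot was not well above background, while the others gave 1.17 to 1.61. Chance flags about 1 in 20 groups, 10 genes were examined, and the 4 arrays hold only 2 RNA samples. With that array left out, Klk6 was at 2.93 and St14 at 1.48 in shLoxl2 against shGFP.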

How the results depend on the processing

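Klk6, Klk7, Klk10 and Asprv1 kept their called rise in shLoxl2 cells under all alternatives that gave a test, although its size moved by over 1.5-fold for Klk7, Klk10 and Asprv1 with no background subtraction and for Klk7 and Klk10 with the scanner's ratios. In shLoxl2 against shGFP the scanner's ratios called 774 probes, the fit lacking the Cy3 array of number 2 called 4620, and fits without a replicate number 1733 to 2789. Across these last, St14 ranged from -0.15 to 1.59, Tgm3 from -0.11 to 0.25 and Snai1 from -0.33 to 0.093. Loxl2 was -0.0064 with no background subtraction.

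In shSnail against shGFP, 0 of the 10 genes were called with the scanner's ratios, 3 with the scaled dye effect, 3 with no dye correction, and 0 to 1 without a replicate number (probes 1584 to 3144). Over all 19719 probes, 4184 were called with the scanner's ratios, 4563 with the scaled effect and 6195 with no dye correction. The main fit called 4203. With no dye correction Casp14 was -0.0017, Spint1 0.36, Tgm1 0.19, Tgm3 0.28, Loxl2 -0.83, Prss27 -0.11 and Scnn1a 0.34. With the scaled effect Spint1 was 0.092, Tgm3 0.088 and Loxl2 -0.33. Casp14 was -0.82 with the scanner's ratios and -0.22 lacking the Cy3 array of shLoxl2 number 2. With no background subtraction Spint1 was 0.0053 and Loxl2 -0.11. Without a replicate number Casp14 ranged from -0.28 to 0.37, St14 from -0.077 to 1.22 and Snai1 from -0.29 to 0.12.

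In shSnail against shLoxl2, 39 to 4283 probes and 2 to 6 genes were called without a replicate number, the fewest probes without shSnail number 2 (39) and number 1 (47). There St14 ranged from -0.38 to 0.068, Spint2 from -0.17 to 0.11, Tgm3 from -0.48 to 0.039, Loxl2 from -0.15 to 0.47 and Snai1 from -0.18 to 0.24. The silenced channels alone called 9592 probes and 9 genes, with St14 at 0.15, Spint2 at 3.69 and Aloxe3 at -0.039. With no background subtraction St14 was 0.25, Loxl2 -0.10 and Snai1 -0.073. With the scanner's ratios Casp14 was -0.21, Spint2 0.14 and Loxl2 -0.36. With dye-cancelled means and the scaled dye effect St14 was 0.21, Tgm3 0.015 and Loxl2 -0.44. The cause of these changes was not tested. In fits with 1 sample of a group, that sample is assumed to vary like the others.

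The scanner's ratios put the median of all probes at -0.28 in both comparisons with shSnail and at -0.04 in shLoxl2 against shGFP. They split the calls into 1012 higher and 3172 lower in shSnail against shGFP (1729 and 2474 otherwise), and 423 and 1927 in shSnail against shLoxl2 (833 and 1683 otherwise). The replicate number as a block called 2709 probes and 5 genes, where 2516 and 5 were called without it. Same-numbered Cy5 arrays deviated together at a correlation of 0.208, but share only a number in the labels. The authors' value table was not run separately, since its shLoxl2 columns hold the scanner's ratios and its shSnail columns 1 array. Slide and scan day could not be blocked, since each of the 6 slides held 1 array and no day held both groups.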
